A study of Homo sapiens with 18 samples.

Results

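Cultures that had spent 72 h in 0.5 ppm airborne formaldehyde were compared with cultures kept in the same exposure chamber at 0 ppm. The comparison used 6 of the 18 arrays of the series, 3 at 0.5 ppm and 3 at 0 ppm, chosen by their labels and not by any measured value. All cultures were A549 cells, an established human lung carcinoma line that is widely used as a model of the alveolar epithelium. They stood at the air-liquid interface in transwells, with medium below and the gas stream above. In each experiment a second culture stood in a reference chamber that held no formaldehyde, so that the 0.5 ppm experiments and the 0 ppm experiments had 3 reference arrays each. The other arrays, of the 0.1 ppm experiments, entered the mean level of a gene, 1 alternative fit and the count over all experiments, and the 0.1 ppm exposure values are quoted beside single genes. Nothing in the sources says whether more than 1 culture went into an RNA sample.

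Formaldehyde is a reactive aldehyde that is soluble in water and crosslinks proteins and DNA. Cells bind it to glutathione, oxidise the adduct to formate through alcohol dehydrogenase 5 (ADH5) and S-formylglutathione hydrolase (ESD), and also use aldehyde dehydrogenases such as ALDH2. Formate then enters one-carbon metabolism on folate. DNA and protein crosslinks are repaired by the Fanconi anaemia pathway, structure-specific nucleases and proteases such as SPRTN.

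RNA was measured on Affymetrix HG-U133 Plus 2.0 arrays, on which a probeset is a set of short probes for 1 transcript. The values are MAS5 signals, a brightness per probeset that the authors scaled to the same trimmed mean on every array, and all comparisons below are on their log2 scale. A gene was represented by its brightest probeset that named no other gene, and genes whose mean log2 signal over 18 arrays lay above that of the median probeset, 4.78, were described first. There were 12392 such genes. Just outside this limit stood ZSCAN18, with a mean log2 signal of 4.7797, and just inside it PRRX2, with 4.7802. Epithelial markers were measured well, with 10 of 11 above the median probeset and a summed signal of 86125 to 142794 at 0.5 ppm and 99233 to 135032 at 0 ppm. Of the markers of other cell types, 2 of 10 for fibroblasts (COL1A1 and PDGFRA), 1 of 8 for endothelium (PECAM1) and 3 of 10 for leukocytes (CD14, ITGAM and LYZ) were above the median probeset. Their summed signals overlapped between the groups, with 3143 to 5238 at 0.5 ppm and 4400 to 6836 at 0 ppm for the leukocyte list, for example. The log2 ratio of 3' to 5' actin signal, a measure of RNA integrity, was 5.70 ± 0.75 at 0.5 ppm and 5.90 ± 0.16 at 0 ppm (SD, n = 3 each; p = 0.7, exact two-sided permutation test, for which 0.1 is the smallest possible p). Replicate 3 of 0.5 ppm had 6.57, beside 5.24 and 5.29 for replicates 1 and 2. The reference arrays had 5.23, 5.79 and 6.16 in the 0.5 ppm experiments and spread more widely in the 0 ppm experiments, with 4.53, 6.31 and 7.57.

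At the study's threshold, an unadjusted p under 0.05, 104 of the 12392 genes were called between 0.5 and 0 ppm, which is 0.839%. Where no gene differed, the threshold would pass a share of about 0.05, so this count does not by itself show that the genes differed. Of the 104, 32 were higher (0.258%) and 72 were lower (0.581%) at 0.5 ppm. EPHA7, CDH10 and EDIL3, which code for proteins of the cell surface and matrix, had the largest positive differences, and LCE3D, FAM238C and U2AF2 had the largest negative ones. Over all 54675 probesets the threshold passed 4.56%, with 1.13% of those above the median and 7.98% of the others, so that most calls came from probesets of low signal. No probeset passed a Benjamini-Hochberg adjusted p of 0.05 in limma, the lowest adjusted p was 0.158, and among above-median genes it was 0.410, that of U2AF2. Every call below is therefore a call at the unadjusted threshold. The surplus of lower genes depended on the scaling, since quantile normalization gave 67 higher and 61 lower genes. The counts depended on the signal added before the logarithm as well, with 217 higher and 370 lower genes after 32 was added to each signal. The plot of the difference against the mean signal shows that the called genes lay over a wide range of levels. Mean log2 signals were 8.95 for U2AF2 and 10.32 for RARRES1. Close to the median probeset stood MCC at 4.79, ADAM33 at 4.85, LINC01842 at 4.90, EPHA7 at 4.92 and HBB at 4.98. All values of MCC, LINC01842 and EPHA7 at 0 ppm, and of ADAM33 and HBB at 0.5 ppm, lay below that level. The size of these differences is uncertain, since a whole group had low signal.

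**Figure D1:**
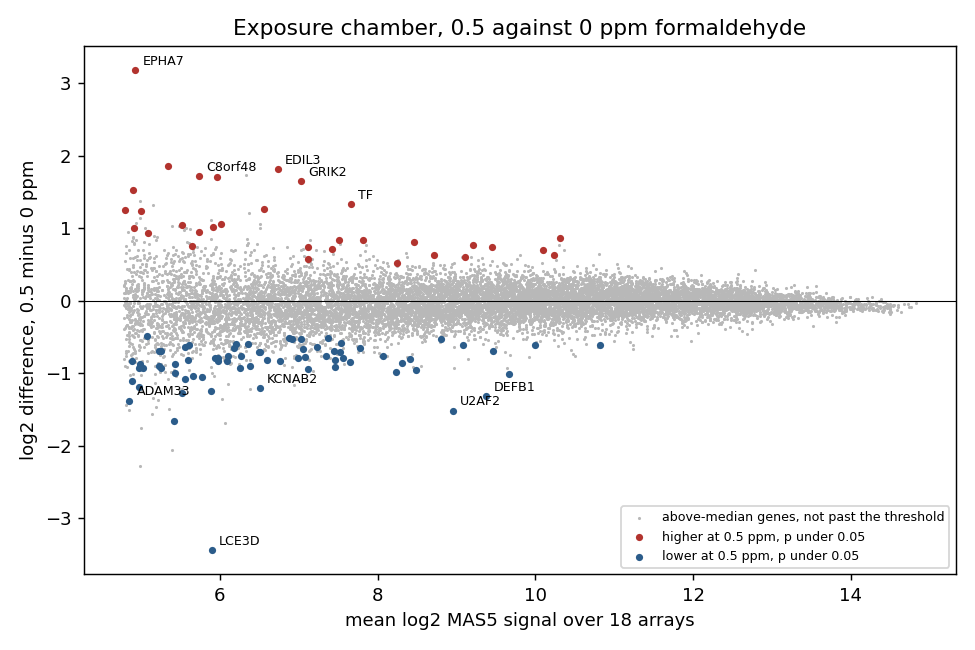
Difference of log2 signal between 0.5 and 0 ppm in the exposure chamber (vertical axis) against the mean log2 signal over 18 arrays (horizontal axis) for 12392 genes. Red points are the 32 genes higher and blue points the 72 genes lower at 0.5 ppm at the study's threshold, and EPHA7 at 3.18 and LCE3D at -3.44 stand at the ends.

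The 3 arrays of 0.5 ppm stood on 1 side of the 3 arrays of 0 ppm for all 104 genes. Among all above-median genes, 2.9% were separated in this way with higher values at 0.5 ppm and 4.27% with lower values. Calling by the threshold thus selects separated genes, and the separation of the 104 is no further finding.

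EPHA7, an ephrin receptor tyrosine kinase of cell contact and guidance, had the largest positive difference. Its log2 signals were 5.08, 6.59 and 6.52 at 0.5 ppm and 3.91, 1.76 and 2.96 at 0 ppm, a difference of 3.18 (standard error 0.70, adjusted p = 0.703 in limma). The groups did not overlap, and all 3 values at 0 ppm lay below the level of the median probeset. The lowest value, 1.76, was that of replicate 2 of 0 ppm, whose raw file bears another date than those of the other 17 arrays, and without it the difference was 2.63 and passed the threshold. In the reference chambers, which held no formaldehyde, EPHA7 had log2 signals of 6.48, 6.42 and 6.78 in the 0.5 ppm experiments and 2.73, 1.88 and 1.57 in the 0 ppm experiments. This difference of 4.50 (standard error 0.40, adjusted p = 0.266 in limma) was numerically larger than that in the exposure chamber, and the interaction, -1.31 (standard error 0.83), did not pass the threshold. The cultures at 0.5 ppm and the reference cultures of the same experiments were thus on the same side of all 0 ppm experiments. The other 3 probesets of EPHA7 lay below the median probeset and did not pass the threshold, with differences of 1.64, 0.14 and -0.39.

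EDIL3, a secreted integrin ligand of the extracellular matrix, had log2 signals of 6.78, 7.05 and 7.63 at 0.5 ppm and 5.55, 5.61 and 4.85 at 0 ppm. It rose by 1.81 (standard error 0.35) at 0.5 ppm, beside a difference of 2.39 in the reference chambers, where the values were 7.97, 6.75 and 8.45 in the 0.5 ppm experiments and 4.91, 6.27 and 4.81 in the 0 ppm experiments. All 3 exposure values at 0.5 ppm exceeded all 3 at 0 ppm, and the reference arrays were separated in the same direction. CDH10, a type II cadherin, had 6.03, 5.65 and 7.02 at 0.5 ppm and 4.60, 4.57 and 3.93 at 0 ppm, a difference of 1.86 (standard error 0.43). The reference chambers gave 1.90 for CDH10, with overlapping arrays. That call in the reference chambers was lost without replicate 1 or 3 of the 0.5 ppm experiments or without replicate 2 or 3 of the 0 ppm experiments, with differences of 1.43 to 1.70. Of 26 cadherins and protocadherins above the median probeset, 10 were above and 16 below 0 in the exposure chamber, with a median of -0.01.

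FILIP1, a filamin-binding protein of the actin cytoskeleton that was chosen after its values were seen, was measured by 4 probesets. The brightest rose by 1.04 (standard error 0.24) at 0.5 ppm, and the others had differences of 1.82, 1.66 and 2.57, each past the threshold. Those with 1.82 and 1.66 lay below the median probeset. That with 2.57 had log2 signals of 4.32, 1.04 and 3.99 at 0 ppm, the lowest in replicate 2, the array with the other date. In the reference chambers the same 4 probesets had differences of 1.65, 2.16, 1.73 and 1.51, of which 2.16 and 1.73 did not pass the threshold. The means of all 4 were thus higher in the 0.5 ppm experiments in both chambers. RARRES1, a retinoic acid responder gene also chosen after its values were seen, had 3 above-median probesets with differences of 0.86, 0.84 and 0.66 in the exposure chamber and 0.88, 0.43 and 0.62 in the reference chambers. The brightest of these lost its call without replicate 1 or 3 of 0.5 ppm or of 0 ppm, with differences of 0.71 to 0.85. Of the 104 called genes 30 had another above-median probeset, and 32 of these 44 probesets (72.7%) had the sign of the brightest, at a median ratio of 0.41 to its difference. Of the 44, 4 passed the threshold in the same direction, 3 of them those of FILIP1 and RARRES1 above. A further above-median probeset was at 0.84 for TF, -0.74 for U2AF2, -0.45 for SEMA6B and 0.07 for ANKMY1, none of them past the threshold. With the mean of a gene's above-median probesets the calls of TF (1.09), SEMA6B (-0.84) and ANKMY1 (-0.49) were lost, and that of U2AF2 (-1.13) held. Of 98 other probesets below the median, 59 (60.2%) had the sign of the brightest. Beside these shares, 57.2% of all above-median genes had a negative difference, as had 72 of the 104 called genes. Of the 98, 4 passed the threshold in the same direction. In the opposite direction 3 passed it, with 1.08 for ANKMY1, -2.40 for GRIK2 and -1.549 for MCC.

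In all, 6 of the 104 genes passed the threshold in the same direction in the reference chambers. They were EPHA7, CDH10, EDIL3, C8orf48 and FILIP1, which were higher, and ZNF446, which was lower and was chosen after its values were seen. Their promoters are printed because each of these genes passed the threshold in the same direction in both chambers. The sequences are from RefSeq (GRCh38.p14), 250 bases before to 50 after the start of transcription that lies farthest upstream, 5′ to 3′ on the strand of the gene, with CG dinucleotides in capitals. They lie at chr6:93419510-93419809 (minus strand), chr5:24644929-24645228 (minus), chr5:84384831-84385130 (minus), chr6:75493751-75494050 (minus) and chr19:58476102-58476401 (plus). C8orf48 is only named.
EPHA7: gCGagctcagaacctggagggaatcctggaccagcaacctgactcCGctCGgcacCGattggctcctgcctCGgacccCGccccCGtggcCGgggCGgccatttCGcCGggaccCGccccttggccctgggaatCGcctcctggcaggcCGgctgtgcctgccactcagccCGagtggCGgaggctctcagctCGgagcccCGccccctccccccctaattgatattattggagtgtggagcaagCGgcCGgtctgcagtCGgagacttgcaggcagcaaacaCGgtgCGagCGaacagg
CDH10: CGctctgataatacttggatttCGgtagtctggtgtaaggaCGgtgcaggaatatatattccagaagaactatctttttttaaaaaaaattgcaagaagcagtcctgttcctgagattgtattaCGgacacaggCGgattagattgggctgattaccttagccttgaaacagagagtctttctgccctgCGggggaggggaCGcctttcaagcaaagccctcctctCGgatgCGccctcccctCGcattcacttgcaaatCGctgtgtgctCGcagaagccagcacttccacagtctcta
EDIL3: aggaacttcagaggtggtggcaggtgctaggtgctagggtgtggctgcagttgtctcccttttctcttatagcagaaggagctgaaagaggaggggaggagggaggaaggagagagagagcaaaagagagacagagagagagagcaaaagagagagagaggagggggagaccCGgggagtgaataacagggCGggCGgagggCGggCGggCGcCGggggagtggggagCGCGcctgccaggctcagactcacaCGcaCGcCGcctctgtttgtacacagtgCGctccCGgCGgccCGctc
FILIP1: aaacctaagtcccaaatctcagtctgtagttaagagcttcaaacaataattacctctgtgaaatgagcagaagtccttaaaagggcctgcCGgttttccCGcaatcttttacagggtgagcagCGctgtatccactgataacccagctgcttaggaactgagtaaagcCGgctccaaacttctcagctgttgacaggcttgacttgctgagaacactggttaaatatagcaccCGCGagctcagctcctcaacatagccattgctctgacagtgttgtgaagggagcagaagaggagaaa
ZNF446: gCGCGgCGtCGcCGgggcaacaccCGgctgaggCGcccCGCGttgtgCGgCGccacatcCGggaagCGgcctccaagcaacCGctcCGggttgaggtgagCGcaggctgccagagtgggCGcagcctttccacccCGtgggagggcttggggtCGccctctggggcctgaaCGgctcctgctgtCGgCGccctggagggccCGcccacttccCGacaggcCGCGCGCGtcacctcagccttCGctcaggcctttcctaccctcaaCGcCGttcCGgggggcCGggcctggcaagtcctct
EPHA7 had 24 CG dinucleotides in this window, CDH10 12, EDIL3 16, FILIP1 6 and ZNF446 33, where the median of all 35116 promoters was 14. As many or more were found in 33.9% of all promoters for EPHA7, 53.1% for CDH10, 47.5% for EDIL3, 66.3% for FILIP1 and 17.2% for ZNF446. None of the printed windows held TATAAA on either strand, a motif of 11.5% of all promoters. The windows thus ranged from below to above the median in CG content.

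Among the other genes with large positive differences, DLC1 had log2 signals of 5.85, 6.89 and 6.63 at 0.5 ppm and 5.56, 4.09 and 4.60 at 0 ppm. Its difference of 1.71 (standard error 0.49) stood beside 0.94 in the reference chambers. GRIK2, a kainate receptor subunit, had 7.31, 7.04 and 8.0 at 0.5 ppm and 6.09, 5.16 and 6.15 at 0 ppm, a difference of 1.65 (standard error 0.41) beside 1.2. For both genes the exposure groups did not overlap, and the reference arrays were separated for GRIK2 and overlapped for DLC1. C8orf48 had differences of 1.72 (standard error 0.38) and 1.00. The second of these, in the reference chambers, did not pass the threshold without replicate 1 or 3 of the 0.5 ppm experiments or without replicate 2 or 3 of the 0 ppm experiments, at 0.80 to 0.98.

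TF, which codes for the iron carrier transferrin, had log2 signals of 7.44, 8.35 and 8.16 at 0.5 ppm and 6.62, 6.34 and 6.98 at 0 ppm, a difference of 1.34 (standard error 0.34). The reference chambers gave 7.44, 9.38 and 7.76 in the 0.5 ppm experiments and 7.52, 7.23 and 8.65 in the 0 ppm experiments, a difference of 0.39 with overlapping arrays. Its reference cultures at 0 ppm were thus above its exposure cultures at 0 ppm on every array. MCC, a regulator of Wnt signalling named after colorectal cancer, had 5.43, 5.09 and 5.45 at 0.5 ppm and 3.63, 4.28 and 4.28 at 0 ppm, a difference of 1.26 (standard error 0.28). In the reference chambers its difference was 0.06, with values from 3.93 to 5.40 in the 0.5 ppm experiments and 4.12 to 5.43 in the 0 ppm experiments. The groups of MCC were thus apart in the exposure chamber and overlapped in the reference chambers, but its interaction of 1.2 (standard error 0.65) did not pass the threshold.

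KRT19, a keratin of simple epithelia, had log2 signals of 6.41, 6.43 and 6.19 at 0.5 ppm and 5.21, 5.93 and 4.72 at 0 ppm. It was 1.05 (standard error 0.36) higher at 0.5 ppm, beside 1.18 in the reference chambers, where the arrays overlapped. Of the 10 A549 and epithelial markers above the median probeset, 2 were above and 8 below 0 in the exposure chamber, with a median of -0.10. Of 20 genes of keratins and mesenchymal transition, 9 were above and 11 below 0, with a median of -0.01. The spread of KRT19 was larger at 0 ppm than at 0.5 ppm, and its call was lost without any 1 of the arrays other than replicate 2 of 0 ppm, with differences of 0.77 to 1.13. CCDC122 and MARK1, a kinase of microtubule-associated proteins, had differences of 1.27 and 1.24 beside 1.03 and 0.91. Leaving out any array other than replicate 3 of 0.5 ppm ended the call of CCDC122, at 0.83 to 1.34. For MARK1 the call ended without replicate 1 or 2 of 0.5 ppm or replicate 2 or 3 of 0 ppm, at 0.87 to 1.33.

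LCE3D, a late cornified envelope protein of stratified epithelia, had the largest negative difference. Its log2 signals were 2.01, 2.57 and 5.33 at 0.5 ppm and 6.71, 5.92 and 7.60 at 0 ppm, a difference of -3.44 (standard error 0.98, adjusted p = 0.923 in limma). Replicates 1 and 2 of 0.5 ppm were far below replicate 3, and without replicate 3 the difference was -4.45. In the reference chambers LCE3D had 6.14, 5.43 and 6.85 in the 0.5 ppm experiments and 7.20, 6.57 and 8.07 in the 0 ppm experiments, a difference of -1.14. Against the reference chamber of its own experiments, which shares the 0.5 ppm arrays, the difference was -2.84 and passed the threshold, while the interaction of -2.30 (standard error 1.18) did not. Of 29 genes of the cornified envelope and the late keratinocyte only 3 were above the median probeset, and the other 2 were at -0.54 for SPRR1A and 0.07 for CNFN.

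U2AF2, the subunit of a splicing factor that binds the polypyrimidine tract, had the smallest p of the above-median genes. It had log2 signals of 8.15, 8.09 and 7.70 at 0.5 ppm and 9.50, 9.70 and 9.28 at 0 ppm, and fell by 1.52 (standard error 0.25, adjusted p = 0.410 in limma). Both groups were tight and lay far apart. The reference chambers were separated in the same direction, with 9.01, 9.18 and 8.13 in the 0.5 ppm experiments, 9.47, 9.65 and 9.67 in the 0 ppm experiments, and a difference of -0.82 that did not pass the threshold, but passed it with 32 added to each signal, with only above-median probesets tested and with a mean-variance trend. Of the 32 splicing regulators above the median probeset none passed the threshold, and their median difference was -0.05.

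DEFB1, the constitutive epithelial defensin, had log2 signals of 9.06, 7.71 and 9.49 at 0.5 ppm and 9.87, 10.25 and 10.08 at 0 ppm. Its difference of -1.31 (standard error 0.50) was matched by -1.30 in the reference chambers, where the values were 9.61, 8.01 and 9.87 in the 0.5 ppm experiments and 10.12, 10.33 and 10.93 in the 0 ppm experiments. Replicate 2 of 0.5 ppm was the lowest in both chambers. The call of DEFB1 was lost without replicate 1 of 0.5 ppm or any 1 array of 0 ppm, at -1.47 to -1.22, and its difference was -0.79 without replicate 2 of 0.5 ppm, where the call held.

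PRDM16, a transcription factor with a PR domain, had 4.88, 4.41 and 5.17 at 0.5 ppm and 5.74, 6.29 and 6.25 at 0 ppm, a difference of -1.27 (standard error 0.31) beside -0.57 in the reference chambers. ZNF76, a zinc finger factor, had 4.67, 4.97 and 5.12 at 0.5 ppm and 6.04, 5.74 and 6.19 at 0 ppm, a difference of -1.07 (standard error 0.25) beside -0.19. FAM238C, SLFNL1 and ANKMY1 had differences of -1.65, -1.10 and -1.06 beside -1.0, -0.89 and -0.54. The exposure arrays of these 5 genes did not overlap, and none of them was past the threshold in the reference chambers. KCNAB2, a potassium channel beta subunit, had -1.21 beside -0.02. Its call ended without replicate 1 or 2 of either concentration, at -1.27 to -0.90.

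ADAM33, a membrane metalloprotease studied in airway disease, had log2 signals of 3.55, 3.06 and 4.16 at 0.5 ppm and 5.69, 4.62 and 4.60 at 0 ppm, a difference of -1.38 (standard error 0.45) beside -0.38 in the reference chambers. Without replicate 1 or 2 of 0.5 ppm or replicate 1 of 0 ppm its call was lost, at -1.36 to -1.02. ADAM8, another membrane metalloprotease, had 5.66, 5.79 and 5.79 at 0.5 ppm and 6.12, 6.50 and 7.12 at 0 ppm, a difference of -0.83 (standard error 0.31) beside -0.41. Leaving out any array other than replicate 1 of 0 ppm ended the call of ADAM8, at -0.87 to -0.56. The 21 metalloproteases and inhibitors above the median probeset had a median difference of -0.06, with these as the only members past the threshold.

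**Figure D2:**
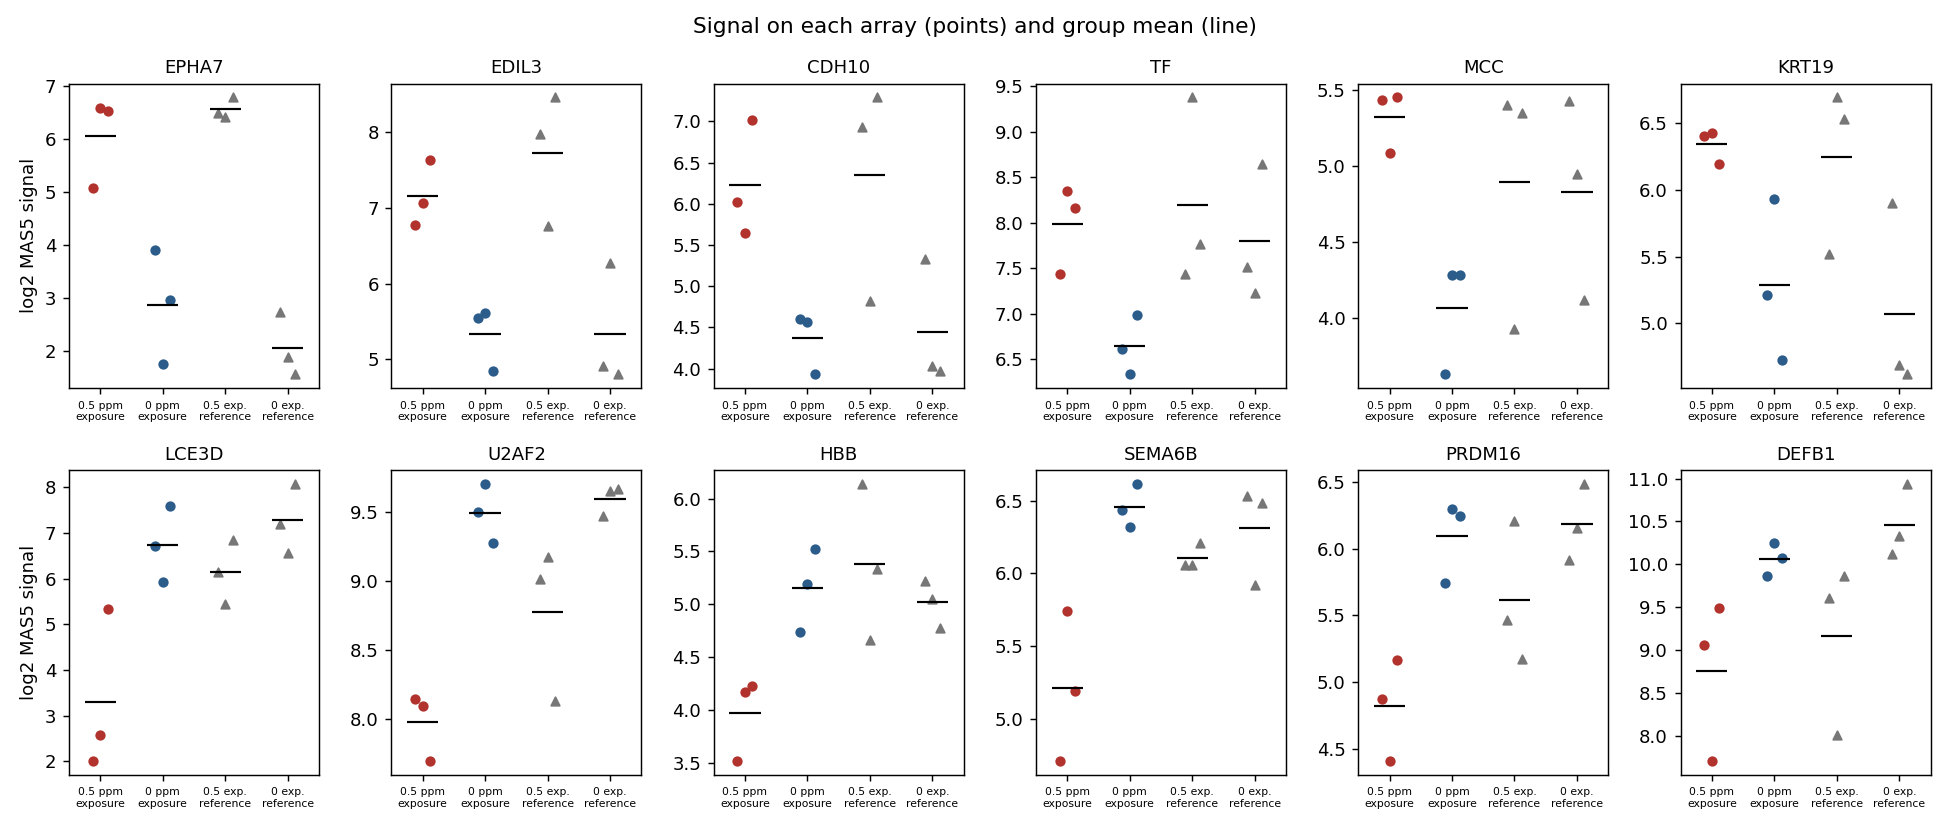
Log2 MAS5 signal of 12 genes (vertical axes) on each array of 4 groups (horizontal axes), with circles for the exposure chamber, triangles for the reference chamber and a line at each mean. For TF, MCC, HBB and SEMA6B the groups were separated in the exposure chamber and overlapped in the reference chambers, and for EPHA7, EDIL3, U2AF2 and DEFB1 they were separated in both.

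The reference chambers of the same 2 sets of experiments ask how far such differences were also found without formaldehyde, and this comparison shares no array with that of the exposure chambers. It passed 69 above-median genes (0.557%) and 4.54% of all probesets at the threshold, against 104 genes (0.839%) and 4.56% in the exposure chamber. Of the 32 genes higher at 0.5 ppm, 28 (87.5%) also had a positive difference in the reference chambers, against 63.1% of all above-median genes with a positive difference in the exposure chamber. Of the 72 lower genes, 59 (81.9%) also had a negative one, against 72.9% of all genes with a negative difference. The median difference of the 32 genes was 0.94 in the exposure chamber and 0.60 in the reference chambers, and that of the 72 genes was -0.82 and -0.41. The median of all above-median genes was -0.03 and -0.07.

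Among the 32 genes, 9 (28.1%) were separated with higher values in the 0.5 ppm experiments in the reference chambers. The share was 5.13% of all genes with a positive difference in the exposure chamber and 2.73% of all above-median genes. Among the 72 genes, 9 (12.5%) were separated with lower values. Here the share was 7.31% of all genes with a negative difference in the exposure chamber and 5.13% of all above-median genes. At the threshold, 5 of the 32 and 1 of the 72 passed in the same direction. This compares with 0.471% and 0.494% of all genes with a positive or a negative difference, and with 0.226% and 0.331% of all genes. The 2 cultures of an experiment were run in parallel, and their deviations from the group mean correlated over probesets by 0.46, 0.46 and 0.41 in the 0.5 ppm experiments and 0.31, 0.01 and 0.32 in the 0 ppm experiments. The reference array of replicate 3 of the 0 ppm experiments had a low 5' actin signal, and without it 26 of the 32 and 50 of the 72 genes kept the sign. All genes shifted as well, since 45.7% had a positive difference in the reference chambers without this array, against 42.5% with it. The exposure and reference differences of all above-median genes correlated by 0.34 without it (Pearson), against 0.44 with it. The share of all genes that kept the sign without it was not computed. The shares of all genes given above rest on all arrays, so whether the excess of the lower genes remains without this array is not known.

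**Figure D3:**
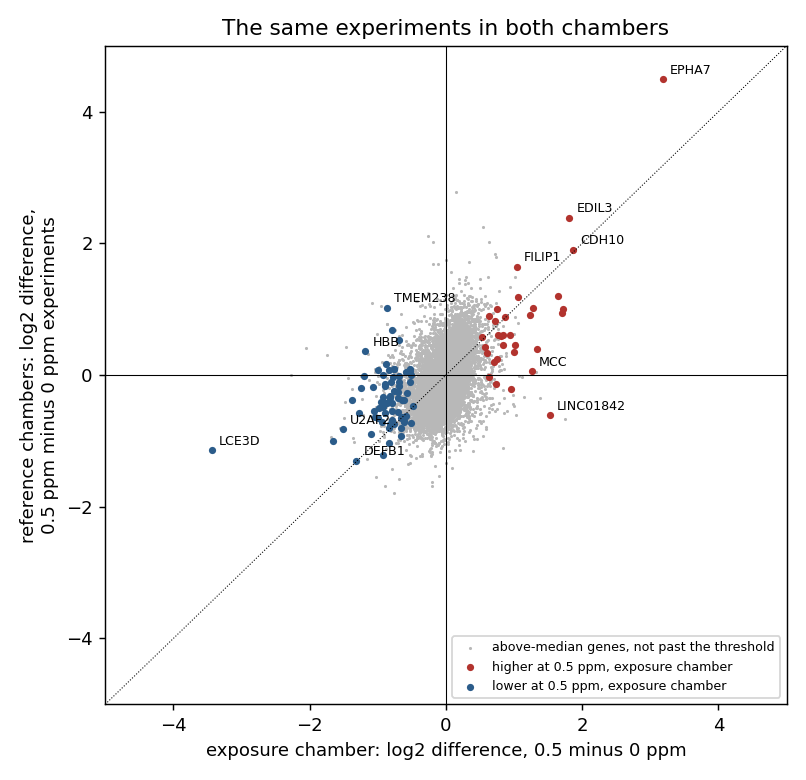
Difference between the 0.5 and 0 ppm experiments in the reference chambers (vertical axis) against that in the exposure chamber (horizontal axis), on the log2 scale, for 12392 genes, with a dotted line of equal differences. Of the red points, higher at 0.5 ppm, 28 of 32 lie above 0 on the vertical axis, and of the blue points, lower at 0.5 ppm, 59 of 72 lie below it.

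The difference between the chambers was tested for each probeset as an interaction over the 12 arrays. It passed 57 above-median genes (0.46%) and 3.69% of all probesets, and none after adjustment in limma, with a lowest adjusted p of 0.159, while 2020 probesets had an unadjusted p under 0.05. With the experiment as a replicate block, which pairs the chambers, 110 above-median genes passed. Of the 104 called genes, 7 passed the interaction, which reuses the exposure arrays that called them. They were LINC01842 and the lower genes HBB, SEMA6B, TMEM238, PLCG1-AS1, BMAL2 and POLR2J4, of which the last 4 were chosen after their values were seen. With all 18 arrays in 1 fit SEMA6B, TMEM238 and POLR2J4 no longer passed, with a mean-variance trend SEMA6B and POLR2J4, and with the replicate block HBB and POLR2J4. For the other 97 the interaction did not pass, which does not show that the chambers gave equal differences.

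HBB, the beta chain of haemoglobin, had log2 signals of 3.52, 4.17 and 4.23 at 0.5 ppm and 4.74, 5.19 and 5.52 at 0 ppm. It had 6.14, 4.66 and 5.34 in the reference chambers of the 0.5 ppm experiments and 5.22, 5.05 and 4.77 in those of the 0 ppm experiments. Its values at 0.5 ppm were below all 9 others, of which those at 0 ppm in the exposure chamber follow from the call. Its place below the reference arrays is in part fixed as well, since it is described here for passing an interaction that uses them. The share of all genes below all 9 others was not counted. The difference was -1.18 (standard error 0.33) in the exposure chamber and 0.36 in the reference chambers, with an interaction of -1.54 (standard error 0.56). Without replicate 1 of 0.5 ppm the interaction was -1.32 and did not pass the threshold. All values of HBB at 0.5 ppm lay below the level of the median probeset. Its other probesets also lay below the median probeset and did not pass the threshold, with differences of 0.60, -0.37 and -0.19 in the exposure chamber.

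SEMA6B, a transmembrane semaphorin, had 4.71, 5.74 and 5.19 at 0.5 ppm and 6.44, 6.32 and 6.61 at 0 ppm. In the reference chambers its values were 6.06, 6.06 and 6.21 in the 0.5 ppm experiments and 6.53, 5.92 and 6.48 in the 0 ppm experiments. The cultures at 0.5 ppm were again below all 9 others, with the same limits as for HBB. The differences were -1.24 (standard error 0.32) and -0.20, and the interaction was -1.04 (standard error 0.42). This call did not hold without replicate 1 or 3 of 0.5 ppm, replicate 1 or 3 of 0 ppm, replicate 3 of the 0.5 ppm reference chambers or replicate 2 of the 0 ppm reference chambers, with values of -1.05 to -0.79.

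LINC01842, a long non-coding RNA, had log2 signals of 4.85, 5.17 and 5.16 at 0.5 ppm and 4.08, 2.27 and 4.26 at 0 ppm, and its difference of 1.52 (standard error 0.58) stood beside -0.61 in the reference chambers. Its interaction was 2.13 (standard error 0.69). The reference values were 5.26, 5.30 and 4.65 in the 0.5 ppm experiments and 5.84, 5.24 and 5.95 in the 0 ppm experiments. The exposure chamber thus differed from its own reference chamber by -0.01 at 0.5 ppm and by -2.14 at 0 ppm. The low value of 2.27 came from replicate 2 of 0 ppm, the array with the other date. Without that array the difference was 0.89 and still passed the threshold, and without any 1 of the 0.5 ppm arrays it was 1.47 to 1.63 and did not. TMEM238 had an interaction of -1.89, PLCG1-AS1 of -1.48, BMAL2, a clock transcription factor, of -1.22 and POLR2J4 of -0.69. The call of BMAL2 was lost without any 1 of the 12 arrays other than replicate 1 of the 0 ppm reference chambers, at -1.33 to -0.78, and that of POLR2J4 without any other than replicate 2 of 0.5 ppm, at -0.77 to -0.54. That of TMEM238 was lost without replicate 2 of 0.5 ppm, of 0 ppm or replicate 3 of the 0.5 ppm reference chambers, at -1.77 to -1.63.

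At 0.1 ppm, a comparison that shares the 0 ppm arrays, EPHA7 had a difference of 3.14, EDIL3 of 2.29, C8orf48 of 1.24 and KRT19 of 1.17 against 0 ppm, each past the threshold. The values at 0.5 ppm were 3.18, 1.81, 1.72 and 1.05. DEFB1 had -1.40 at 0.1 ppm and -1.31 at 0.5 ppm, and PRDM16 had -1.02 and -1.27. For U2AF2 the values were -0.52 and -1.52, for LCE3D -0.45 and -3.44 and for HBB -0.40 and -1.18, and at 0.1 ppm none of these 3 passed the threshold.

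The raw file names in the labels also carry a number, the same for both chambers of an experiment. It was 7, 8 and 9 for the 0 ppm experiments, 4, 6 and 2 for replicates 1 to 3 at 0.1 ppm, and 5, 1 and 3 for replicates 1 to 3 at 0.5 ppm. The sources used here do not say what the number stands for, and the order of experiments was randomized by the study's design text, but the 0 ppm experiments and the numbers 7 to 9 cannot be told apart. EPHA7 had log2 signals of 4.15 to 7.65 on the 12 arrays of experiments 1 to 6, those with 0.1 and 0.5 ppm and their reference chambers, and 1.57 to 3.91 on the 6 arrays of experiments 7 to 9. DEFB1 was ordered the other way, with 7.71 to 9.87 on the 12 arrays and 9.87 to 10.93 on the 6, a gap of less than the last digit printed. EPHA7 was the 1 gene of the 12392 higher on all 12 arrays than on all 6, and DEFB1 the 1 gene lower.

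**Figure D4:**
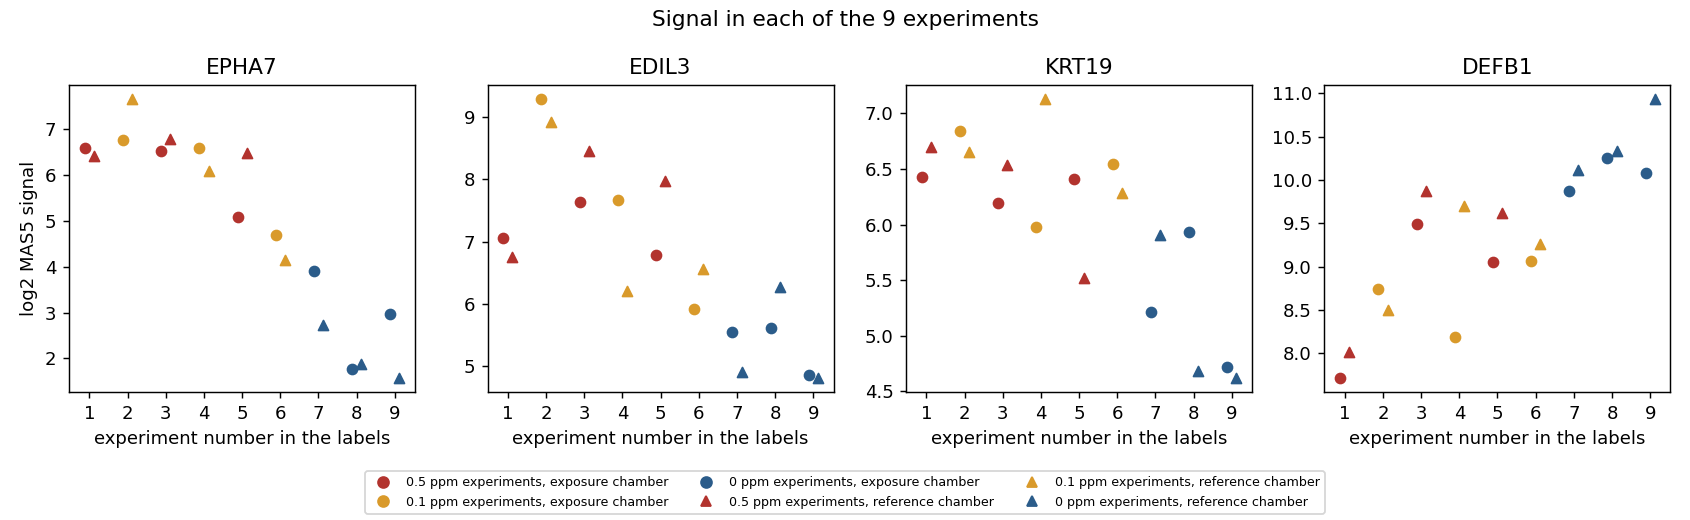
Log2 MAS5 signal of EPHA7, EDIL3, KRT19 and DEFB1 (vertical axes) against the number in the raw file names (horizontal axes), with circles for the exposure chamber and triangles for the reference chamber, coloured by the concentration of the experiment. EPHA7 was at 1.57 to 3.91 in experiments 7 to 9 and at 4.15 to 7.65 in experiments 1 to 6, in both chambers.

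Gene lists for the handling of formaldehyde, for stress and for the airway epithelium were chosen by function, with 39 lists and 741 members above the median probeset. Of these members 6 passed the threshold (0.810%), against 0.839% of all above-median genes: CDH10 and KRT19, which were higher, and LCE3D, ADAM33, ADAM8 and SLX4, which were lower. In 33 lists no member passed. The medians of the 32 lists with 10 or more such members lay between -0.19 and 0.08, where the median of all genes was -0.03.

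Of the 13 genes of formaldehyde oxidation none passed the threshold, and 5 were above and 8 below 0, with a median of -0.01. ADH5, the enzyme that oxidises S-hydroxymethylglutathione, had log2 signals of 12.73, 12.71 and 13.12 at 0.5 ppm and 12.79, 12.91 and 12.90 at 0 ppm, a difference of -0.01 (standard error 0.22). ESD had 0.01 (standard error 0.22) and mitochondrial ALDH2 had 0.00 (standard error 0.21). The groups of these 3 genes overlapped. ALDH1B1, a mitochondrial aldehyde dehydrogenase, had 11.64, 11.36 and 11.99 at 0.5 ppm and 12.01, 12.59 and 12.04 at 0 ppm, without overlap and with a difference of -0.55 (standard error 0.29), beside -0.64 in the reference chambers. ADH1A had -1.13 (standard error 0.57) at low signal. Among 11 genes of folate and formate metabolism, none of which passed, the 10-formyltetrahydrofolate dehydrogenases ALDH1L1 and ALDH1L2 had 0.31 (standard error 0.33) and 0.64 (standard error 0.51).

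The 31 genes for the repair of crosslinks had a median of -0.03, with 13 above and 18 below 0. SLX4, a scaffold of structure-specific nucleases, was the only member past the threshold, with 6.97, 7.19 and 6.51 at 0.5 ppm and 7.54, 7.65 and 7.60 at 0 ppm, a difference of -0.71 (standard error 0.26) beside -0.56 in the reference chambers. Its call ended without any 1 array other than replicate 2 of 0.5 ppm, at -0.75 to -0.52. FANCE, a subunit of the Fanconi core complex, had -0.43 (standard error 0.21), and SPRTN, the protease of DNA-protein crosslinks, had 0.21 (standard error 0.27).

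The 32 glutathione and NRF2 target genes had a median of -0.08, the 17 heat shock genes and chaperones -0.06, the 25 genes of the unfolded protein and integrated stress response 0.04 and the 17 p53 targets 0.08. None of their members passed the threshold. Of 6 metallothioneins, metal-binding proteins of the stress response, 5 were above 0. The brightest probeset of MT1G had 10.07, 10.46 and 10.22 at 0.5 ppm and 9.96, 9.72 and 9.83 at 0 ppm, without overlap and with a difference of 0.41 (standard error 0.22), beside 0.40 in the reference chambers. Near-identical metallothionein genes can share probes, so that the values of single members are uncertain. Among 13 mucins and secretory genes 2 were above and 11 below 0, with a median of -0.17 beside -0.27 in the reference chambers, and 17 sirtuins and deacetylases had a median of -0.19 beside -0.24, the lowest among lists with 10 or more members. The 34 cytosolic ribosomal proteins had 32 members below 0 with a median of -0.06. Of all above-median genes 57.2% were below 0.

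**Figure D5:**
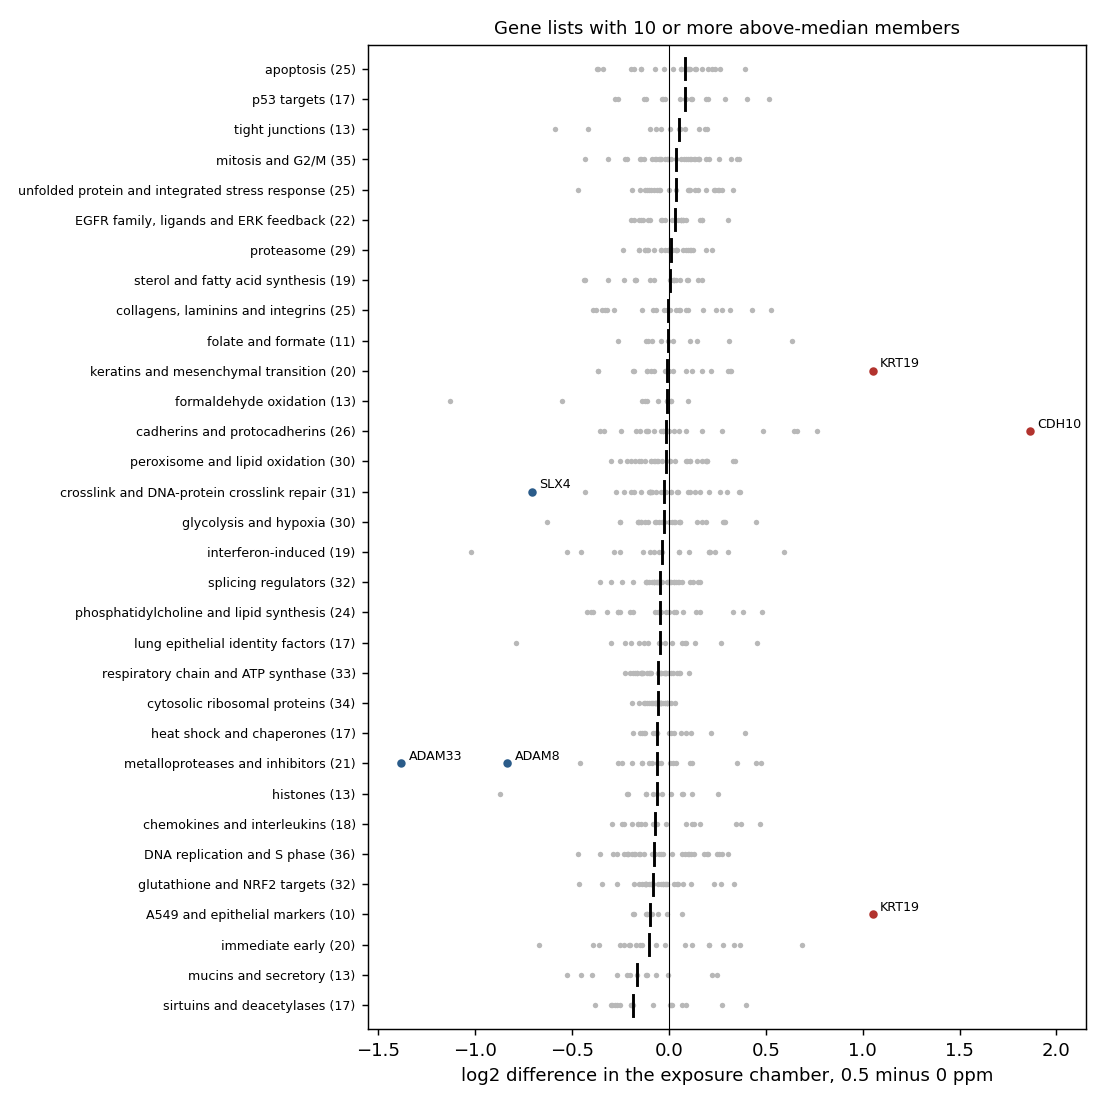
Difference of log2 signal between 0.5 and 0 ppm in the exposure chamber (horizontal axis) for the members of the 32 gene lists with 10 or more above-median genes (rows, with the number of genes), with a bar at the median of each list. Coloured and named points passed the study's threshold, red for higher and blue for lower at 0.5 ppm, and the medians run between -0.19 and 0.08.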

How the data were processed

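The deposited values are MAS5 signals, an intensity per probeset on a linear scale. The authors amplified and biotin-labelled total RNA, hybridised 1 array per sample and computed MAS5 in R with default settings, and the trimmed mean of each array (2% left out at each end) was 500 in the deposited intensity values. No depth applies to arrays, and their number limits the precision. Log2 signals of all 54675 probesets were fitted with limma 3.58.1 in R 4.3.3 (lmFit and eBayes), over the 6 arrays compared, or over 12 for the interaction. The threshold was the study's unadjusted p of 0.05, with the Benjamini-Hochberg adjusted p over all probesets beside it. GEO's platform annotation names 1 gene for 41097 probesets, several for 1801 and none for 11777, and the 41097 stand for 19775 genes. The genes named are the 12 with the largest difference in each direction among above-median genes past the threshold with no overlap of the groups, and every list member past it. Other list members are given as examples with values and no call, and ALDH1B1, MT1G, ADH1A, ALDH1L1, ALDH1L2, FANCE, SPRTN, SPRR1A and CNFN among them were chosen after their values were seen. The members and lists were chosen with earlier results of these data known. Replicates are separate experiments by the labels. Replicate numbers of the 0.5 and 0 ppm experiments were not taken to pair the arrays, since they belong to different experiments. Deviations from the group mean correlated by -0.09, -0.17 and 0.13 between exposure arrays of the same number. Between reference arrays of the same number they correlated by 0.41, -0.09 and 0.18. Alternatives were quantile normalization, 32 added to each signal, only above-median probesets, a mean-variance trend, all 18 arrays in 1 fit, the replicate block, the mean of a gene's above-median probesets and leaving out each array. The steps were tested on simulated data. Promoters were matched by symbol for 74 of the 104 genes. Absent or present calls were not used here.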

Additional observations from a re-analysis of the deposited data

How the results depend on the processing

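No probeset passed the adjusted threshold in the exposure chamber under any alternative tried. None of the 26 named genes reversed its difference there, and 11 (EPHA7, EDIL3, C8orf48, GRIK2, MCC, ZNF76, HBB, PRDM16, U2AF2, FAM238C and LCE3D) kept their calls in all of them. With the mean of a gene's above-median probesets, run for named genes after seeing the data, those of TF, ANKMY1 and SEMA6B were lost. With all 18 arrays in 1 fit the calls of CDH10, TF, SLX4, ADAM8 and SLFNL1 were lost, as were those of FILIP1 and RARRES1 and that of CDH10 in the reference chambers, and with quantile normalization that of DEFB1. With the replicate number as a block, which does not pair the concentrations, 17 genes were higher and 35 lower, with 151 above-median probesets past the threshold, and the calls of DLC1, LINC01842, CCDC122, MARK1, SLX4, ADAM8, KCNAB2 and DEFB1 were lost. RARRES1 was lost too, as was C8orf48 in the reference chambers, and pairing the chambers by experiment gave 110 genes for the interaction.

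The above-median counts in the exposure chamber were 309 probesets with 32 genes higher and 72 lower as reported. They were 1357, 217 and 370 with 32 added to each signal, 976, 110 and 242 with only above-median probesets tested, and 755, 112 and 223 with a mean-variance trend. Both of these together, chosen after seeing the data, gave 762, 102 and 214. Quantile normalization gave 67 genes higher and 61 lower, and the mean of a gene's above-median probesets gave 27 and 63. Without 1 array the counts were 165 to 487 probesets, 19 to 42 genes higher and 35 to 129 lower, and all probesets numbered 2435 to 3018. The 129 lower genes came without replicate 1 of 0 ppm and the 19 higher ones without replicate 1 of 0.5 ppm. The cause of these shifts was not tested.

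The 69 genes of the reference chambers became 615 with 32 added, 305 with only above-median probesets tested, 363 with the trend, 270 with all 18 arrays in 1 fit, and 16 to 545 without 1 array, with 2313 to 4457 probesets. Both highest counts came without replicate 1 of the 0 ppm experiments. After adjustment 1 gene, EPHA7 (adjusted p = 0.013 in limma), passed with only above-median probesets tested. With all probesets tested its adjusted p was 0.266. On the arrays of the 0 ppm experiments EPHA7 had log2 signals of 1.57 to 3.91, all below the level of the median probeset. It was above-median only through its signals in the other experiments, so this restriction was not separate from the difference tested. With all 18 arrays in 1 fit, 1 probeset that names no gene passed after adjustment. The 57 genes of the interaction became 165 with 32 added and 108 with only above-median probesets tested, and 45 to 396 without 1 array, with 1907 to 3442 probesets, both highest without replicate 1 of the 0 ppm reference chambers. After adjustment 0 to 1 probesets passed without 1 array, among them MPPED2 without replicate 1 of the 0.5 ppm reference chambers and DENND5B without replicate 1 of the 0 ppm ones. Without 1 array 25 to 31 of the 32 and 50 to 61 of the 72 genes kept their sign in the reference chambers, and the matching share of all genes was not computed. There, with all arrays kept, calls were gained under some alternatives by GRIK2, MARK1, KRT19, DEFB1, U2AF2, LCE3D and RARRES1, and values near 0 changed sign: KCNAB2 had 0.0304 with quantile normalization, 0.00058 with 32 added and -0.42 to 0.18 without 1 array, MCC had -0.30 to 0.54, ZNF76 -0.72 to 0.13, HBB -0.0184 to 0.72, TF -0.20 to 0.82 and ADAM33 -0.82 to 0.0448. Of 312 list medians recomputed under other settings, 20 moved by more than the spread between arrays.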
